A study of Rattus norvegicus with 16 samples.

Results

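Stat3, Socs3 and Cebpd were followed in the hearts of male Wistar rats given doxorubicin (DOX), an anthracycline chemotherapy drug that can damage the heart, and in hearts of saline-treated controls. These are 3 of the 32545 genes in the deposited tables, taken by their Ensembl identifiers: ENSRNOG00000019742 for Stat3, ENSRNOG00000002946 for Socs3 and ENSRNOG00000050869 for Cebpd. The symbols were taken as given with the identifiers, since the gene table at hand pairs none of the identifiers with a symbol, and for the same reason the other genes of the pathway and the marker genes of heart cell types could not be named or counted here. The 3 genes were chosen with the difference between DOX high and saline hearts already known. That difference is therefore given as a description, without a test, and tests were kept for how the genes varied between hearts of the same group.

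The 3 genes belong to a signalling loop best known from cytokines of the interleukin-6 family. When such a cytokine binds its receptor, Janus kinases phosphorylate STAT3, which moves to the nucleus and switches on its targets. Socs3 is a classic target: its protein binds the receptor and the kinases and shuts the signal down, so that its mRNA is often read as a trace of recent signalling. Cebpd encodes the transcription factor C/EBP delta, which is normally scarce and is induced quickly in the acute phase response, by STAT3 and also by other signals such as glucocorticoids. STAT3 can also raise transcription of its own gene. In the heart the pathway is known for its part in the response to injury and in hypertrophy.

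RNA of 10 saline control hearts and 6 DOX high hearts ("high DOX" in the sample labels) was sequenced, with 1 library for each rat. Rats of both groups were matched for age and weight and were 6 to 8 weeks old at the start. DOX high rats had been injected through a tail vein with 3 mg per kg DOX on 5 weekly occasions, which adds up to 15 mg per kg. Saline was also injected intravenously, on 5 weekly occasions by the sample labels and on 6 by the study's methods. All hearts were taken at week 6, after blood sampling and magnetic resonance imaging under isoflurane anaesthesia, so every heart in both groups had gone through that procedure. The tissue is a piece of whole heart, and in such bulk RNA a change in the number of cells that carry an mRNA cannot be told apart from a change in its level per cell.

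Saline libraries held 13784896 to 16842418 counted fragments and DOX high libraries 15369246 to 18025615. Rats 5 to 10 were all saline-treated, whereas rats 30 to 39 comprised saline rats 34 to 37 and the 6 DOX high rats. The library labels number all saline libraries before all DOX high libraries, also within rats 30 to 39. What this numbering stands for is not stated, and its part cannot be told apart from that of the group. The libraries of saline rat 37 and DOX high rat 32 were looked at more closely. Across the 13607 genes kept by the expression filter, that of saline rat 37 correlated better with the DOX high libraries (median Pearson r of 0.973) than with the other saline libraries (median r of 0.946). In the heart of DOX high rat 32, 533 genes exceeded all other hearts by more than 2-fold, against 14 in that of saline rat 37. The same values were not obtained for the other hearts, so how unusual they are is not known. Rats 37 and 32 were kept under their labels, and fold changes, ratios and correlations are also given without them.

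Stat3, the transcription factor of the loop, was an abundant mRNA in every heart. Its level in TPM, a unit that divides counts by gene length and scales each library to a fixed total, was on average higher than that of 90.1% of the genes kept by the filter. In CPM, counts relative to library size after correction of library composition by TMM factors, Stat3 ran from 133 CPM through a median of 147 CPM to 279 CPM in saline hearts. In DOX high hearts it ran from 179.8 CPM through a median of 237 CPM to 276 CPM. The groups overlapped: all 6 DOX high hearts lay above the saline median, but none lay above the highest saline heart, and saline rats 6, 36 and 37 exceeded the lowest DOX high heart, that of rat 32. The means were 168 ± 45.6 CPM (SD, n = 10) in saline and 236 ± 34.8 CPM (SD, n = 6) in DOX high hearts. The log2 fold change was 0.49 (standard error 0.15), or 1.4-fold higher in DOX high.

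On TPM the Stat3 levels of the controls were more spread. They ran from 34.8 TPM through a median of 39.1 TPM to 93.7 TPM in saline hearts, and from 65.0 TPM through 73.3 TPM to 81.6 TPM in DOX high hearts. Saline rats 6 and 37, at 86.4 TPM and 93.7 TPM, then lay above all 6 DOX high hearts. Saline rats 6, 36 and 37 were also the only saline hearts in which the 10 most abundant genes took under 25% of the counts (22.0%, 24.4% and 24.4%), where the other 7 saline hearts had 30.8% to 35.4%. A smaller share on the most abundant genes leaves a larger share for all others on the TPM scale, which is set to a fixed total in each library. TMM scaling lowered the value of rat 6 to 206 CPM, below 5 of the 6 DOX high hearts. The part of this composition in the levels of Stat3 was not tested further.

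Socs3, the feedback inhibitor, was the least abundant of the 3 mRNAs and, over all rats, had the largest fold difference of the 3 between the groups. It had from 28 to 179 counted fragments per saline heart (median 56) and from 170 to 406 per DOX high heart (median 309). Scaled, these were 2.05 CPM, a median of 3.92 CPM and 10.5 CPM in saline, against 10.1 CPM, 17.7 CPM and 22.6 CPM in DOX high hearts. All but 1 of the 10 saline hearts lay below every DOX high heart. The exception was again saline rat 37, whose 10.5 CPM just exceeded the 10.1 CPM of DOX high rat 31, while the next saline heart, that of rat 34, had 4.92 CPM. The means were 4.26 ± 2.37 CPM (SD, n = 10) and 16.8 ± 4.56 CPM (SD, n = 6). DOX high hearts were 3.91-fold higher, at a log2 fold change of 1.97 (standard error 0.28).

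Cebpd, the acute phase transcription factor, alone of the 3 genes had no overlap between the groups. It ran from 6.89 CPM through a median of 10.9 CPM to 19.5 CPM in saline hearts and from 22.4 CPM through 37.8 CPM to 46.2 CPM in DOX high hearts. The highest saline heart was that of rat 37, and the next were rat 6 at 12.3 CPM and rat 35 at 12.2 CPM. On TPM the gap between the groups closed almost fully, to 25.4 TPM in saline rat 37 against 25.8 TPM in DOX high rat 31. Every DOX high heart was above every saline heart for 0.595% of the 13607 genes on CPM and for 0.257% on TPM, and since Cebpd was chosen on this contrast nothing is read from its being among them. Its means were 10.9 ± 3.60 CPM (SD, n = 10) and 36.4 ± 9.80 CPM (SD, n = 6). DOX high hearts were 3.33-fold higher, at a log2 fold change of 1.73 (standard error 0.20). Over all genes tested, 6.25% passed an adjusted p of 0.05 in edgeR's quasi-likelihood test and 4.01% did so with a higher level in DOX high hearts. These shares depend on the rats compared: 851 genes were called over all rats, 2 with the number block (rats 5 to 10 or 30 to 39) as a covariate and 0 within rats 30 to 39 alone, where 1891 had an unadjusted p under 0.05. With 1 rat left out the count ran from 345, when that was rat 38 (DOX high), to 1762, when it was rat 37 (saline).

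**Figure D1:**
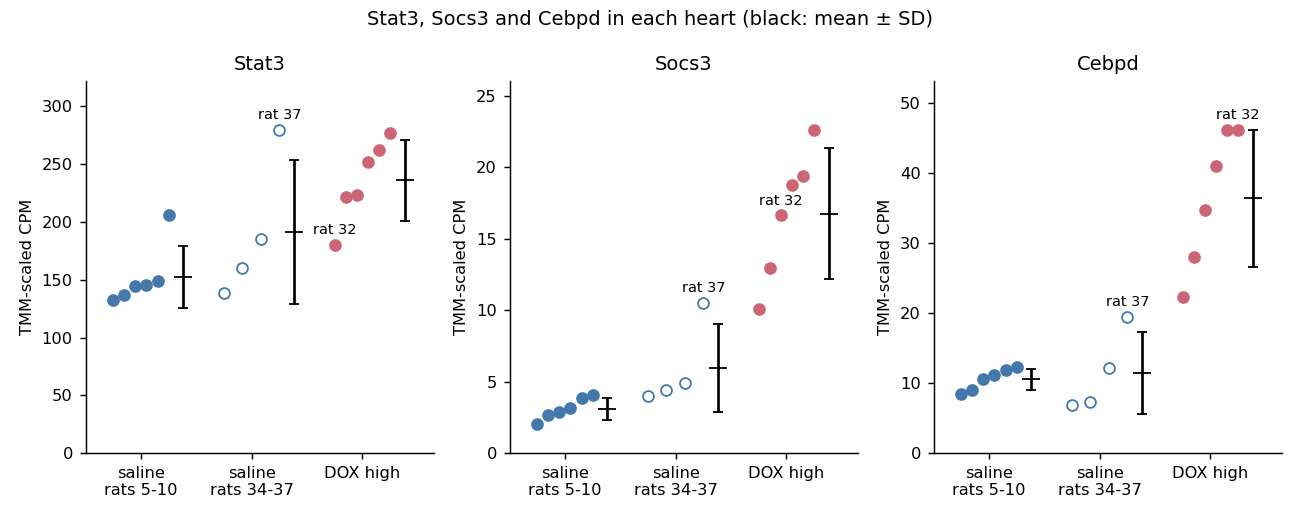
Level of Stat3, Socs3 and Cebpd in each heart, in TMM-scaled CPM on linear axes from 0, with saline rats 5 to 10 (filled blue), saline rats 34 to 37 (open blue) and DOX high rats (red). Points are hearts in order of their value, and the black marks give the mean ± SD. Saline rat 37 stands above the other controls in all 3 genes, at 279, 10.5 and 19.5 CPM.

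Leaving out saline rat 37 or DOX high rat 32 moved the size of these differences but not their direction. Without saline rat 37 the log2 fold changes were 0.60 (standard error 0.11) for Stat3, 2.23 (standard error 0.20) for Socs3 and 1.87 (standard error 0.17) for Cebpd. Without DOX high rat 32 they were 0.55, 1.97 and 1.65. Without both, a choice made after seeing the data, they were 0.67, 2.24 and 1.79. Within rats 30 to 39 alone, which compares the 6 DOX high hearts with 4 saline hearts of neighbouring numbers, they were 0.30 (standard error 0.19), 1.48 (standard error 0.32) and 1.66 (standard error 0.32). Thus Stat3 differed there by 1.23-fold and Socs3 by 2.79-fold. With saline rat 37 also left out, likewise a choice made after seeing the data, their log2 fold changes were 0.55 and 1.91. Both were below the 0.60 and 2.23 that the remaining rats of both number blocks gave without saline rat 37. Cebpd reached 2.04 within rats 30 to 39 without saline rat 37, its highest value among these selections of hearts. With all rats and the number block as a covariate, the log2 fold changes were 0.305, 1.49 and 1.66.

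**Figure D2:**
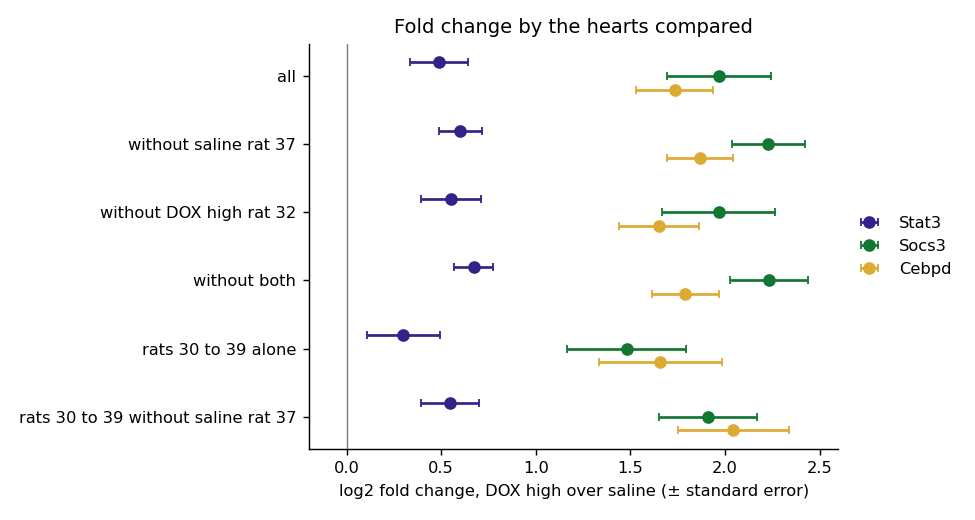
Log2 fold change of DOX high over saline for each gene (points) with its standard error (bars), by the hearts that entered the edgeR fit. Stat3 lies between 0.30 and 0.67, and Socs3 and Cebpd lie between 1.48 and 2.24, in each of the 6 selections of hearts.

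A ratio of the genes within a heart is free of library scaling, but its counting error still depends on depth. By TPM, which allows levels of different genes to be compared, the order was Stat3, then Cebpd, then Socs3 in all 10 saline and all 6 DOX high hearts. As ratios, Socs3 and Cebpd both lay nearer to Stat3 in DOX high hearts. Socs3 per Stat3 ran from 0.0768 through a median of 0.123 to 0.193 in saline hearts and from 0.232 through 0.364 to 0.524 in DOX high hearts. The groups did not overlap in this ratio, although each gene alone overlapped. Cebpd per Stat3 ran from 0.154 through 0.259 to 0.337 in saline and from 0.389 through 0.582 to 0.998 in DOX high hearts, again without overlap. Without saline rat 37 the highest saline values were 0.182 and 0.337, and without DOX high rat 32 the lowest DOX high values were still 0.232 and 0.389. Of the 13606 other genes, 0.0735% had a ratio to Stat3 that was higher in every DOX high heart than in every saline heart. This count rests on the contrast that chose the genes and is given as a description.

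Saline rat 37 kept its place among the controls in these ratios more than in the levels. Its Cebpd per Stat3 of 0.271 was within the range of the other saline hearts, and its Socs3 per Stat3 of 0.193 was the highest of the saline hearts, next to 0.182 in rat 34. In this heart all 3 mRNAs were above the other controls, whereas the DOX high hearts stood out more in Socs3 and Cebpd than in Stat3. DOX high rat 32 was at the other end, with the highest Cebpd per Stat3 (0.998) and the second highest Socs3 per Stat3 (0.475). Its Stat3 level was the lowest of its group on CPM (179.8 CPM) but the third highest on TPM (78.2 TPM). In this library the 10 most abundant genes took 18.7% of the counts, the least of all 16, and its TMM factor of 1.36 was the highest. Their part in these values was not tested.

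The proportion of Socs3 to Cebpd overlapped between the groups. Socs3 per Cebpd had a median of 0.456 in saline and 0.605 in DOX high hearts. It was 0.527 ± 0.222 (SD, n = 10) in saline and 0.614 ± 0.0959 (SD, n = 6) in DOX high hearts, and the DOX high range of 0.476 to 0.730 lay inside the saline range of 0.228 to 0.943. The saline hearts with the highest values were rats 34, 36 and 37, at 0.943, 0.801 and 0.714. Rat 35 had 0.430, and rats 5 to 10 ran from 0.228 through a median of 0.418 to 0.499, so 5 of the 6 DOX high hearts lay above all of them. Whether the ratio differs between the groups was not tested.

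**Figure D3:**
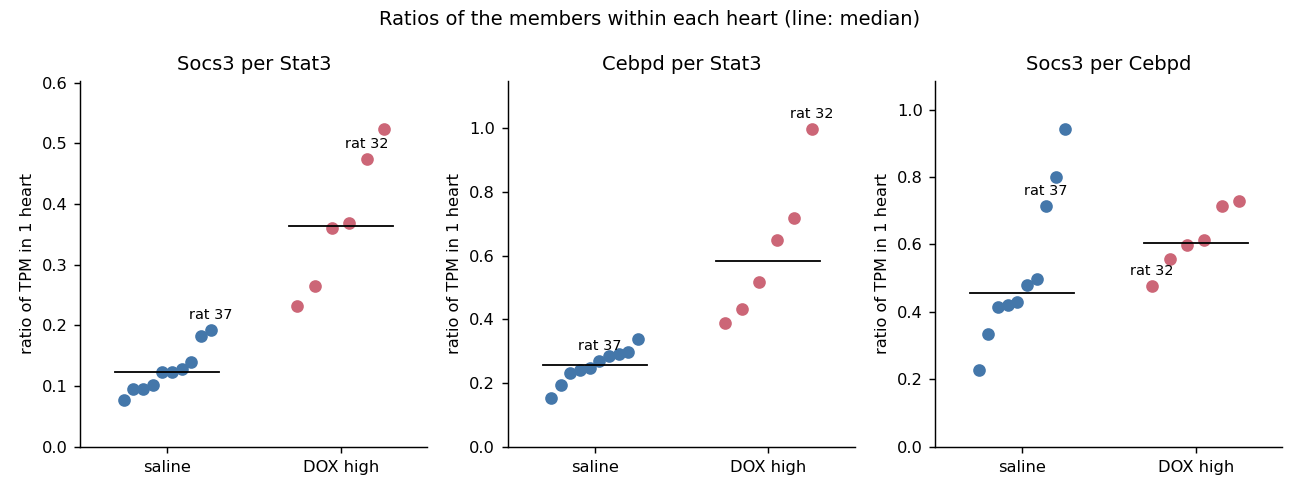
Ratio of TPM values of 2 genes within each heart, on linear axes from 0, for saline (blue) and DOX high (red) hearts, with the group median as a line. Both ratios to Stat3 separate the groups, with saline hearts up to 0.193 and 0.337 and DOX high hearts from 0.232 and 0.389, while Socs3 per Cebpd overlaps.

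The number blocks of the saline rats gave a comparison that did not enter the choice of the genes. Socs3 was 3.12 ± 0.749 CPM (SD, n = 6) in saline rats 5 to 10 and 5.97 ± 3.06 CPM (SD, n = 4) in saline rats 34 to 37. Rats 34, 36 and 37 lay above all 6 lower-numbered rats, while rat 35, at 3.98 CPM, lay just below the 4.05 CPM of rat 5. The log2 fold change of rats 34 to 37 over rats 5 to 10 was 0.94 (standard error 0.30) for Socs3. Its adjusted p was 0.918 from edgeR's quasi-likelihood test over 13413 genes (unadjusted p of 0.00955 from that edgeR fit). Without saline rat 37 the log2 fold change was 0.51. Stat3 differed by 0.33 (standard error 0.20, adjusted p = 0.918 from edgeR) and Cebpd by 0.13 (standard error 0.28, adjusted p = 0.951 from edgeR), and the sign of Cebpd turned without rat 37, to -0.26. By this test 0% of the genes were called, and DESeq2 called 22. An unadjusted p under 0.05 in the edgeR test was found for 591 genes, a share below the 0.05 that chance alone gives. None of the 3 genes therefore passed after adjustment over all 13413 genes tested. An adjustment over the 3 genes alone was not made, so a difference of Socs3 between the blocks remains possible. The difference of Socs3, the largest of the 3, pointed the same way as that between DOX high and saline hearts.

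The biological coefficient of variation estimated by edgeR within groups was 0.382 for Socs3, above the 0.323 of the trend for genes of its abundance. For Cebpd it was 0.286 against 0.255, and for Stat3, with 0.221 against 0.246, it was under the trend. Counting error was largest for Socs3 in the controls. The lowest count, 28 fragments in saline rat 10, has a counting error of 18.9% and a 95% exact Poisson interval of 18.6 to 40.5, which covers counting error only. The lowest counts of Cebpd and Stat3 were 91 in saline rat 34 and 1752 in saline rat 9, with counting errors of 10.5% and 2.39%. In DOX high hearts the coefficient of variation of CPM was 27.2% for Socs3, 26.9% for Cebpd and 14.8% for Stat3, and on TPM it was highest for Cebpd (31.9%, 41.0% and 9.94%). In saline hearts that of CPM fell from 55.6% to 25.8% for Socs3 when rat 37 was left out, from 32.99% to 21.2% for Cebpd and from 27.2% to 15.9% for Stat3.

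Whether the genes rose and fell together between hearts was asked within each group, on log2 CPM, so that the difference between the groups did not enter. No correlation is given over both groups with the group difference left in, since that difference is what chose the genes. Of the 3 pairs in 2 groups, none passed an adjusted p of 0.05 over the 6 Pearson or over the 6 Spearman tests. On log2(TPM + 1), a scale that keeps differences in library composition, 3 of the 6 Pearson correlations passed: Stat3 with Socs3 and with Cebpd in saline hearts (r of 0.850 and 0.819) and Socs3 with Cebpd in DOX high hearts (r of 0.915).

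In saline hearts (n = 10) Stat3 and Socs3 had a Pearson r of 0.799 (two-sided permutation test, p = 0.0244, adjusted p = 0.127) and a Spearman rho of 0.552 (permutation p = 0.105, adjusted p = 0.315). Without rats 6 and 37, the 2 farthest from the median of Stat3, r was 0.475. Stat3 and Cebpd had r of 0.662 (permutation p = 0.0637, adjusted p = 0.127) and rho of 0.576 (permutation p = 0.0892, adjusted p = 0.315), and without the same 2 hearts r was -0.137. Socs3 and Cebpd had r of 0.407 (permutation p = 0.247, adjusted p = 0.370) and rho of -0.018 (permutation p = 0.968, adjusted p = 0.968), and without rats 10 and 37 r was -0.296. All 3 values of r were lower without rat 37 alone, at 0.427, 0.199 and -0.428 for the 3 pairs. The rho values were then 0.383, 0.417 and -0.400. Within saline rats 5 to 10 alone r was 0.555, 0.579 and 0.021, and saline rats 34 to 37 were too few for a correlation.

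In DOX high hearts (n = 6) Socs3 and Cebpd had the highest r of the 3 pairs, 0.852 (exact two-sided permutation p = 0.0556, adjusted p = 0.127), with a rho of 0.600 (exact permutation p = 0.242, adjusted p = 0.483). Rats 30 and 31 were the lowest of the group in both genes, and without both r was -0.245 over the 4 hearts left, too few and too narrow in range to read. With only rat 30 left out r was 0.828, with only rat 31 left out 0.640, and with only rat 32 left out 0.936. Stat3 stood in no detectable relation to either gene, with r of 0.121 to Socs3 (exact permutation p = 0.736, adjusted p = 0.853) and of -0.139 to Cebpd (exact permutation p = 0.853, adjusted p = 0.853). The rho values were 0.143 (exact permutation p = 0.803, adjusted p = 0.963) and -0.200 (exact permutation p = 0.714, adjusted p = 0.963). Without rats 32 and 33, the farthest from the median of Stat3, r was 0.096 and 0.094 over the 4 hearts left. The difference of these correlations between saline and DOX high hearts was not tested.

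**Figure D4:**
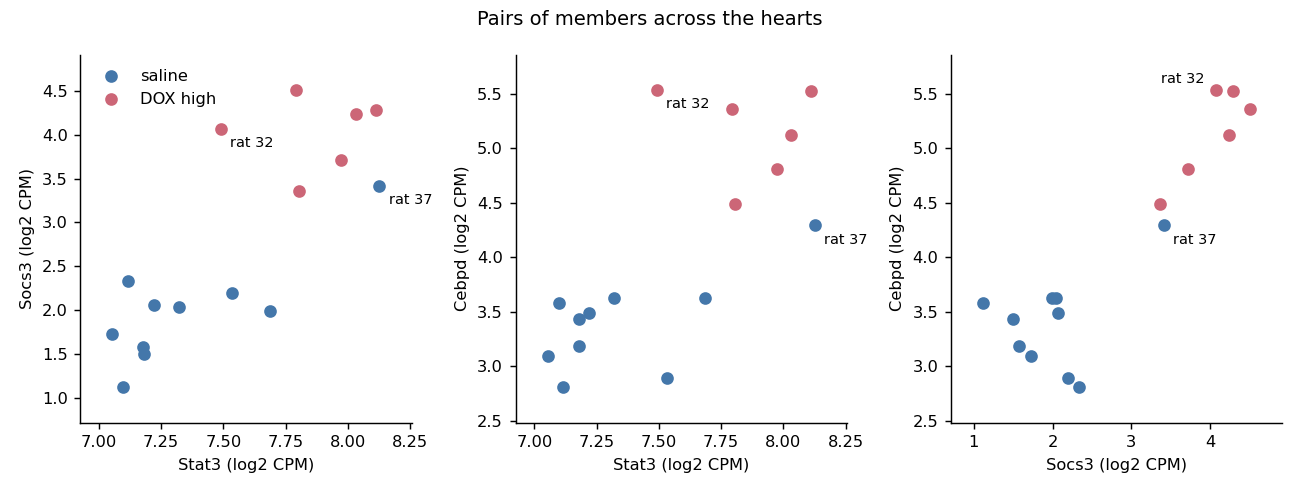
Each pair of genes across the hearts, in log2 CPM, with saline hearts in blue and DOX high hearts in red. Among the 6 DOX high hearts Socs3 and Cebpd had r of 0.852, which did not pass the adjusted threshold, and saline rat 37 lies beside the DOX high hearts in the panel of this pair.

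The genes most like the 3 in their variation between hearts were looked up without regard to group. After removal of the group means, the mean of the 3 standardised profiles over the 16 hearts was compared with 8542 other genes of at least 3 in mean log2 CPM. The files pair no identifiers with symbols, so the 2 genes at each end are given by identifier. Most alike were ENSRNOG00000004500 (r of 0.884) and ENSRNOG00000001414 (r of 0.880), and most opposed were ENSRNOG00000011093 (r of -0.898) and ENSRNOG00000011195 (r of -0.885). Without saline rat 37 the first pair had r of 0.626 each, with ranks of 142 and 141, and the opposed pair had r of -0.697 and -0.715. Without DOX high rat 32 the 4 values were 0.884, 0.882, -0.897 and -0.895. The 3 genes were not the closest to each other in the same comparison, which ranked 8544 genes by likeness to each of them. Socs3 was kept in this ranking although its own mean log2 CPM was under 3. The part of its lower counts in these places was not tested. Stat3 and Socs3 had r of 0.663, Socs3 and Cebpd 0.521, and Stat3 and Cebpd 0.446. For Stat3, Socs3 came at place 875 and Cebpd at place 1939. For Socs3, Stat3 came at place 170 and Cebpd at place 654. For Cebpd, Socs3 came at place 263 and Stat3 at place 564. Without saline rat 37 the places ranged from 1179 to 4215 and the r values were 0.299, 0.179 and 0.042. Without DOX high rat 32 the places ranged from 151 to 1387 and the r values were 0.720, 0.535 and 0.605. These correlations are descriptions over hearts that share their libraries' scaling.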

How the data were processed

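For 16 strand-specific polyA libraries, the authors aligned read pairs with Hisat2 to the Rnor_6.0 assembly and counted fragments on exons of an Ensembl annotation with featureCounts (Subread 1.5.0, by the submitters' processing notes) at default settings, which do not use strand. The deposited counts are raw whole numbers of fragments for each gene. The deposited TPM values were derived by the authors from these counts, by gene length and with the same total in each library. In a newer rat annotation (RefSeq, GRCr8) 0 other genes overlap Stat3, Socs3 or Cebpd.

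Counts were fitted with edgeR 4.0.16 in R 4.3.3 (filterByExpr, TMM, quasi-likelihood F test, Benjamini-Hochberg adjustment over all genes tested, no covariates). A standard error is the absolute log2 fold change over the root of its F statistic. Over all 16 rats, 851 of 13607 genes, or 6.25%, passed an adjusted p of 0.05, of which 546 were higher in DOX high. Log2 CPM used a prior count of 2. Correlations were tested by exact enumeration with under 10 hearts and otherwise by 100000 permutations, in Python 3.11.15. Both steps were tested on simulated data. Alternatives were DESeq2 1.42.0, limma 3.58.1 on TPM in log2 units with a pseudocount of 1 or 0.1, other scalings, filters and prior counts, subsets of rats and leaving out each rat. Named genes were the 3 genes and those most and least like them between hearts. The genes, lists and tests were chosen with earlier results of these data known. The 16 gene lists of the pathway, related genes and cell type markers (134 genes) were not tested, because 0 of the 32545 identifiers had a symbol in the table used.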

Additional observations from a re-analysis of the deposited data

Results flagged for a closer look

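On the linear CPM scale, saline rat 37 lay far from the other 9 saline hearts in the level of each gene. It had 279 CPM of Stat3, 10.5 CPM of Socs3 and 19.5 CPM of Cebpd. Its Socs3 level of 18.1 TPM was also far from the others, while its Stat3 and Cebpd levels in TPM were not. Of 18 groups of values examined for a distant heart (levels in CPM and TPM and the 3 ratios, in each group), 4 held one, where chance gives about 0.9, and the 4 are values of the same library. No ratio between the genes and no DOX high heart was distant in this sense. Log2 values, on which a high heart lies less far out, were not examined in this way.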

How the results depend on the processing

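The log2 fold changes of Stat3, Socs3 and Cebpd kept their direction in all 26 alternatives each. These are not independent, and the fit with the number block as a covariate repeats the comparison within rats 30 to 39. The lowest values were 0.30 for Stat3 and 1.48 for Socs3, both within rats 30 to 39, and 1.65 for Cebpd, without DOX high rat 32. The shift of Socs3, from 1.97, was larger than its standard error of 0.28. The SD of single hearts within groups was 0.556 in log2 CPM, which does not measure the error of a difference between groups. Leaving out 1 rat gave 0.44 to 0.60 for Stat3, 1.86 to 2.23 for Socs3 and 1.65 to 1.87 for Cebpd. The number of genes called, 851, was less stable. It was 1574 with DESeq2, 255 and 285 with limma on log2(TPM + 1) and log2(TPM + 0.1), 110 at an adjusted p under 0.01, and from 345 without rat 38 (DOX high) up to 1762 without rat 37 (saline) when 1 rat was left out. With edgeR it was 0 within rats 30 to 39 (1891 with an unadjusted p under 0.05) and 2 when the number block entered the fit (1841). Chosen after seeing the data, it was 307 within rats 30 to 39 without saline rat 37, and 1766 without saline rat 37 and DOX high rat 32. The cause was not tested.

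On log2(TPM + 1) the correlations were higher than on CPM. Stat3 and Socs3 in saline hearts had r of 0.850 (permutation test, adjusted p = 0.0109), Stat3 and Cebpd in saline hearts 0.819 (adjusted p = 0.0278) and Socs3 and Cebpd in DOX high hearts 0.915 (exact permutation test, adjusted p = 0.0278), all then past 0.05. Stat3 and Cebpd in DOX high hearts turned from -0.139 to 0.580. The cause was not tested. Leaving out 1 rat gave, in saline hearts, 0.427 to 0.889 for Stat3 and Socs3 (adjusted p = 0.0305 by exact permutation without rat 34), 0.199 to 0.828 for Stat3 and Cebpd (adjusted p = 0.031 by exact permutation without rat 36) and -0.428 to 0.582 for Socs3 and Cebpd, the lowest value of each without rat 37. In DOX high hearts it gave -0.05 to 0.279 for Stat3 and Socs3 (lowest without rat 33), -0.507 to 0.473 for Stat3 and Cebpd (highest without rat 32) and 0.640 to 0.936 for Socs3 and Cebpd. Saline rats 34 to 37 against rats 5 to 10, with 1 rat left out, gave log2 fold changes of 0.081 to 0.461 for Stat3. The ranges were 0.508 to 1.10 for Socs3 and -0.261 to 0.311 for Cebpd, the lowest value of each gene without rat 37. In this comparison no alternative brought any of the 3 under an adjusted p of 0.05.

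No paired analysis was possible because no rat number occurs in both groups. For the gene lists, which use symbols, no alternative was run. Depth limits single hearts most for Socs3 in the controls, with 28 to 179 fragments.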
